A study of Mus musculus with 3 samples.

Results

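The genes described here encode the eukaryotic translation initiation factors eIF1 to eIF6 and the proteins named after them. A gene was a member if its mouse annotation was protein-coding and its symbol began with Eif followed by a digit from 1 to 6. The eIF2 kinase genes (Eif2ak) and the sex-linked Eif2s3x and Eif2s3y were left out by this rule. It gave 49 genes with 241 transcripts, out of 18130 protein-coding genes with a coding transcript in the table. All came from 3 RNA-seq libraries of wild-type mouse cortical neurons under the control condition, replicates 1 to 3, which form the only group. The series title is about topoisomerases and torsional stress of neuronal DNA, and treatment contrasts were not part of these samples. Genes were therefore compared with each other, library by library.

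Initiation is the step of protein synthesis at which a ribosome finds the start codon. The eIF2 complex brings the initiator tRNA to the small subunit, with eIF1, eIF1A, eIF5 and the large eIF3 complex, while the eIF4F complex, made of the cap-binding eIF4E, the scaffold eIF4G and the helicase eIF4A, prepares the mRNA. In neurons, eIF4E-binding proteins and phosphorylation of eIF2 are well-known points of control, in synaptic plasticity among other settings.

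Levels are in TPM (transcripts per 1000000), a relative abundance scaled by transcript length. For each gene the value is that of 1 coding transcript, the one whose mean TPM times full annotated exonic length was highest. This product only approximates its reads where the deposited span differs from the annotation. Errors are SD over the 3 libraries. The labels do not say whether the libraries came from separate cultures, so the spread may be technical. The libraries held between 28822132 and 33179238 estimated reads on these coding transcripts, of which 242847 to 277139 were on the 49 genes. All 7 neuronal markers reached 1 TPM, and so did all 6 astrocyte and 5 of 6 oligodendrocyte-lineage markers. Of 5 microglial markers 1 did, and of 4 endothelial markers none, with Tmem119 and Cldn5 at 0. Among 4 markers of dividing cells 3 reached 1 TPM, from Ccnb1 at 0.61 TPM to Top2a at 4.13 TPM. The summed level of the neuronal markers ran from 1604 (replicate 3) to 1881 TPM (replicate 2) and that of the astrocyte markers from 388 (replicate 1) to 464 TPM (replicate 3). In such bulk RNA, fewer cells of a type and less RNA per cell cannot be told apart.

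Nearly all initiation factor genes were transcribed at middle to high levels. A mean of at least 1 TPM was reached by 48 of the 49, against a background of 61.8% of all coding genes. At least 10 TPM was reached by 41 (background 26.9%) and at least 100 TPM by 3 (background 1.65%). The median over the 49 genes was 24.1, 25.5 and 25.5 TPM in replicates 1 to 3, a mean of 25.1 ± 0.81 TPM (n = 3). Over all coding genes the same median was 2.90 ± 0.01 TPM, and over those with a mean of at least 1 TPM it was 8.23 ± 0.13 TPM. The 49 genes are 0.27% of the coding genes and held 0.843% ± 0.017 of their summed TPM (n = 3).

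**Figure D1:**
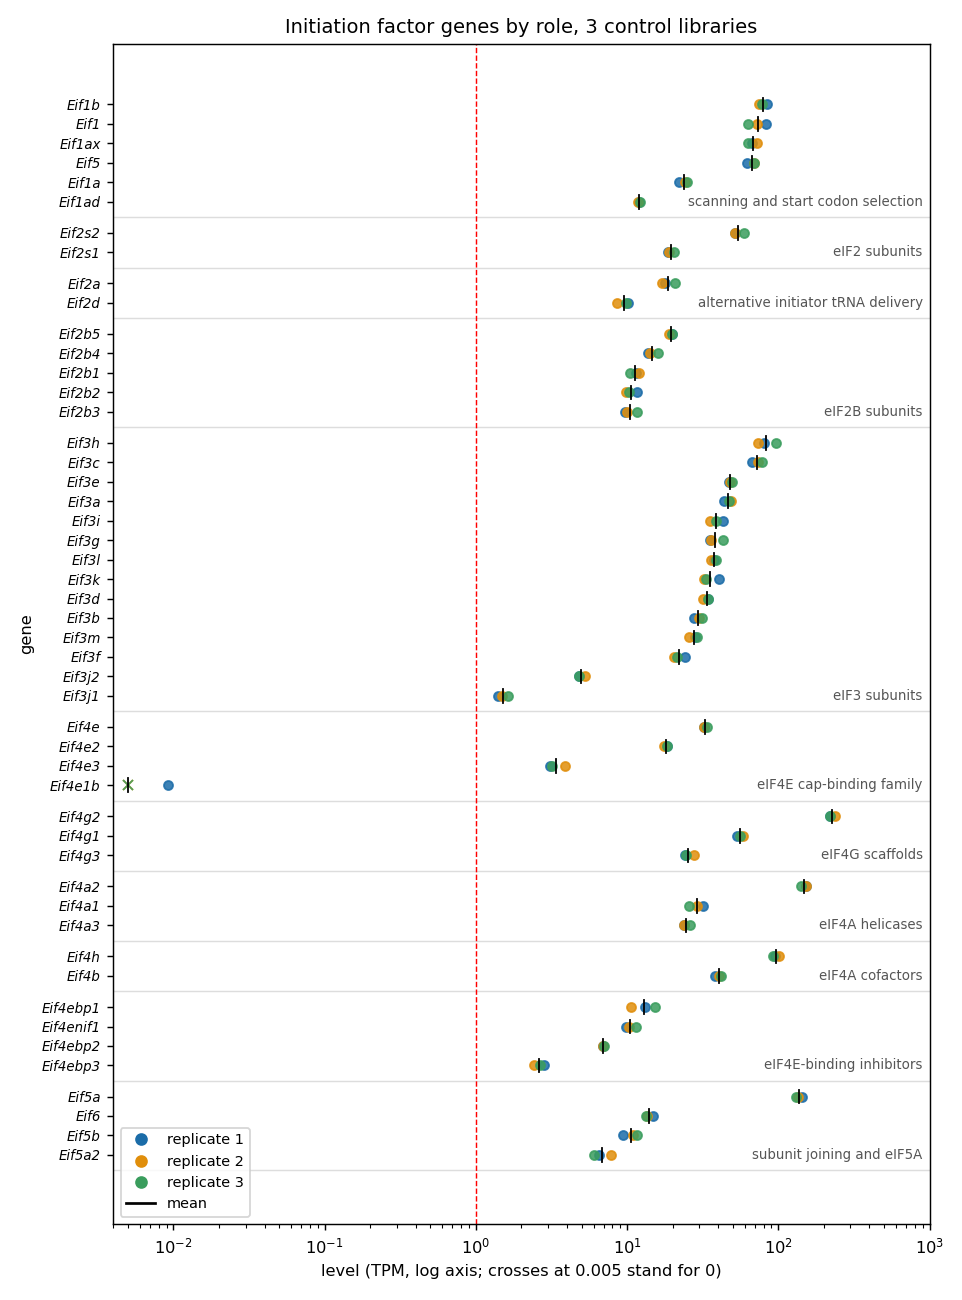
Level in TPM (log axis) of each of the 49 genes, grouped by role, with 1 point per library and a black bar at the mean of the 3 libraries. The dashed line marks 1 TPM, crosses stand for a value of 0, and only Eif4e1b lies below the line.

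The order of the levels ran from Eif4g2, at rank 84 of all coding genes, down to Eif4e1b. In 34 of the 48 neighbouring pairs of that order the library values overlapped, so the ranges of most neighbours did not separate them. Of these pairs, only Eif4a2 with Eif5a and Eif1b with Eif1 still kept the same order in each library. The order was broken by 14 gaps without overlap. These lay below Eif4g2, Eif5a, Eif5, Eif2s2, Eif3a, Eif4e, Eif3f, Eif4e2, Eif2d and Eif5a2, and at every step from Eif3j2 down to Eif4e1b.

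Among the scaffold genes, Eif4g2 had the highest level of all 49 genes, except with the sum over transcripts, where Eif4a2 had 4649 and Eif4g2 3266 TPM. Eif4g2 (chr7:111067750-111083030, minus strand, GRCm38) encodes a relative of eIF4G1 that lacks the eIF4E-binding part and takes part in cap-independent and other non-canonical initiation. It stood at 219, 236 and 221 TPM, a mean of 225 ± 9.61 TPM (n = 3). Eif4g1 (chr16:20668313-20692884), the main scaffold, had 53.02, 58.6 and 56.1 TPM. Eif4g3, a second full-length scaffold gene, had 24.0, 27.5 and 24.4 TPM. The 3 genes kept the same order in each library and their ranges did not overlap, and each was highest in replicate 2, as were 40.4% of all coding genes with at least 1 TPM. The difference of Eif4g2 minus Eif4g1 was 2.01 ± 0.04 on the log2(TPM + 0.1) scale, a 4.03-fold higher level. That of Eif4g3 minus Eif4g1 was -1.14 ± 0.05. At least 98.1% of the 50-base stretches of each of these transcripts occurred nowhere else in the genome, and division by these shares left the differences at 2.04 and -1.14 log2 units.

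Each such difference was tested over the 3 libraries by an exact permutation of its signs (two-sided), which cannot give a p below 0.25 with so few libraries. There were 17 comparisons, and 15 of them had the same sign in all 3 libraries and p = 0.25 (exact test, Benjamini-Hochberg adjusted 0.283). No comparison could therefore reach 0.05, and the spread between libraries is given beside each difference instead. The log2(TPM + 0.1) scale understates differences of low genes.

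Of the helicase genes Eif4a2 was listed highest, and Eif4a1 had the smallest share of unique 50-mers of all 49 genes. Eif4a1 and Eif4a2 encode near-equivalent eIF4A helicases that unwind the leader of the mRNA, with Eif4a2 known as the form prominent in brain. Eif4a3 encodes the related core helicase of the exon junction complex, which marks spliced mRNA. Eif4a2 (chr16:23107444-23114136, plus strand) had 152, 151 and 142 TPM. Eif4a1 (chr11:69666936-69672423, minus strand) had 31.8, 29.02 and 25.5 TPM. Eif4a3 (chr11:119288363-119300089, minus strand) had 23.8, 23.7 and 25.9 TPM. As listed, Eif4a2 was above both relatives in each library, while the ranges of Eif4a1 and Eif4a3 overlapped. Eif4a2 exceeded Eif4a1 by 2.37 ± 0.11 log2 units, or 5.17-fold. Eif4a3 minus Eif4a1 was -0.23 ± 0.22 (exact sign-flip p = 0.50, n = 3), with replicate 3 on the other side of 0, and was 0.11 with the transcript of highest TPM.

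How far the Eif4a1 level can be read depends on its copies. Only 14.5% of the 50-mers of its transcript were found nowhere else in the genome, against 68.4% for Eif4a2 and 75.3% for Eif4a3. The processed pseudogene Eif4a-ps4 on chromosome 1 held 68.2% of the Eif4a1 50-mers and matched 1217 of the 1218 coding bases. Eif4a2 matched Eif4a1 at 78.6% of the aligned coding bases. The stretch below, from exon 3 of Eif4a1 and of Eif4a2, is shown because here the pseudogene equals Eif4a1 while Eif4a2 does not. Capitals mark bases that differ from Eif4a1.
Eif4a1, chr11:69670688-69670747, minus strand: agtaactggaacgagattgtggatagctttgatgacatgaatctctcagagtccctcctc
Eif4a-ps4, chr1:60704004-60704063, plus strand: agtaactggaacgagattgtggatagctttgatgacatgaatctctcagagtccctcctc
Eif4a2, chr16:23108719-23108778, plus strand: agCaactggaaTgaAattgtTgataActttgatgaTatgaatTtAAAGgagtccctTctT

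The pseudogene differed from Eif4a1 at 0 of these 60 bases and Eif4a2 at 13. Eif4a-ps4 itself was listed at only 0.34 ± 0.06 TPM (n = 3). Dividing each level by its unique share, a rough allowance added after the data were seen, brought Eif4a1 from 28.8 to 199 TPM and Eif4a2 from 149 to 217 TPM with 50-mers. The Eif4a2 minus Eif4a1 difference then shrank from 2.37 to 0.13 log2 units, to 0.49 with 75-mers and to 0.81 with 100-mers. Eif4a3 minus Eif4a1 moved to -2.61, -2.26 and -1.98. The read length, and how reads with several matches were counted, are not given in the sources used here, and whether reads of Eif4a1 were assigned elsewhere or left out was not tested.

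Both cofactors of eIF4A were abundant. Eif4h (chr5:134619721-134639490) and Eif4b (chr15:102073773-102097173) encode RNA-binding proteins that stimulate the helicase. Eif4h had 95.3, 102 and 92.6 TPM and Eif4b 38.4, 40.4 and 42.1 TPM. The ranges lay apart, and Eif4h exceeded Eif4b by 1.26 ± 0.11 log2 units, or 2.39-fold.

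The cap-binding family held 3 genes above 1 TPM and 1 gene near 0. Eif4e (chr3:138526179-138559696) encodes the protein that binds the mRNA cap and had 32.4, 32.2 and 34.0 TPM. Eif4e2, which encodes a cap-binding protein known as a repressor of translation, had 18.4, 17.5 and 18.2 TPM. Eif4e3, another relative, had 3.10, 3.87 and 3.17 TPM. The 3 genes stood apart in each library. Eif4e2 minus Eif4e was -0.86 ± 0.04 and Eif4e3 minus Eif4e -3.25 ± 0.20 log2 units. The first of these depended on which transcript stood for Eif4e2. Its 8 listed transcripts ran from 9.90 to 35.1 TPM, and with the transcript of highest TPM in place of the one used here, the difference became 0.09. It was 2.33 with the sum over transcripts, which counts shared reads repeatedly. Eif4e1b (chr13:54783998-54788459), a relative known from oocytes, was the only gene of the 49 under 1 TPM. It had 1 read in replicate 1 and 0 reads in the other libraries, where a count of 0 allows up to 0.033 and 0.031 TPM. These limits cover counting error only.

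The eIF4E-binding inhibitors were among the lower genes. Their products hold eIF4E away from eIF4G until the kinase mTOR phosphorylates them, and the product of Eif4ebp2 is known as the main form in brain. Eif4ebp1 (chr8:27260329-27276674) had 13.2, 10.6 and 15.3 TPM. Eif4ebp2 (chr10:61428491-61452661) had 6.93, 6.90 and 7.02 TPM. Eif4ebp3 had 2.81, 2.43 and 2.65 TPM. The order was the same in every library. Eif4ebp1 was the most variable gene of the 48 (coefficient of variation 17.9%) and Eif4ebp2 the least (0.917%). The Eif4ebp2 value lay below a counting error of 4.16%, which is only an estimate because its read numbers were not recovered. Eif4ebp2 minus Eif4ebp1 was -0.88 ± 0.25 and Eif4ebp3 minus Eif4ebp1 -2.25 ± 0.21 log2 units. With the sum over transcripts the first of these was -0.00053. For Eif4ebp1 and Eif4ebp2 the exonic length behind the deposited TPM could not be recovered, since no whole read numbers came out. Of the Eif4ebp3 exons, 67.3% overlapped the gene AC115631.1 on the same strand, listed at up to 5.74 TPM, so reads there cannot be assigned to either. Eif4enif1, which encodes the transporter that carries eIF4E into the nucleus and acts in mRNA repression, stood at 10.5 ± 0.80 TPM (n = 3).

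The genes for scanning and start codon choice included several of the most abundant members. Eif1 and Eif1b encode close forms of the factor that keeps the ribosome from stopping at wrong codons. Eif1 (chr11:100319885-100322096) had 83.1, 72.7 and 63.1 TPM, and Eif1b (chr9:120492232-120495330) had 83.6, 74.9 and 78.6 TPM. Their ranges overlapped. Eif1b minus Eif1 was 0.12 ± 0.17 log2 units, a difference smaller than its spread although its sign was the same in each library. Here too the unique shares differed, as 43.0% of Eif1 50-mers were unique and 100% of those of Eif1b. The largest shares of Eif1 50-mers found elsewhere lay within the Tmem132d gene (22.7%) and the processed pseudogene Gm10157 (14.1%). Eif1b was not among the main copies. Eif1 and Eif1b are identical at 275 of 339 coding bases. In the stretch of exon 2 below, where capitals mark bases that differ from Eif1, they differ at 11 of 60.
Eif1, chr11:100320666-100320725, plus strand: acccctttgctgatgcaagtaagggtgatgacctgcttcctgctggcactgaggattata
Eif1b, chr9:120494107-120494166, plus strand: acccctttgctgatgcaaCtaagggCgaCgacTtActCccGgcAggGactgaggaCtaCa

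After division by the unique share, Eif1 lay above Eif1b, at -1.10, -0.65 and -0.41 log2 units for Eif1b minus Eif1 with 50-, 75- and 100-mers, and -1.46 with the sum over transcripts. Eif1ax and Eif1a encode the scanning factor eIF1A. Eif1ax (chrX:159372178-159389928) had 67.3, 72.7 and 62.5 TPM and Eif1a 22.2, 24.1 and 24.9 TPM. The ranges lay far apart, and Eif1a minus Eif1ax was -1.50 ± 0.15 log2 units, with at least 94.7% unique 50-mers in each. Eif5, which makes eIF2 hydrolyse GTP at the start codon, stood at 66.7 ± 3.93 TPM, and Eif1ad, which encodes a protein with an eIF1A-like domain, at 11.9 ± 0.18 TPM (n = 3). Of the Eif1ad exons, 16.7% overlapped Banf1 on the opposite strand, listed at 46.6 TPM, and whether counting used strand is not given in the sources used here.

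Of the eIF2 and eIF2B genes, Eif2s2 lay above the members' median and the others below it. eIF2 carries the initiator tRNA, and its alpha subunit, encoded by Eif2s1, is the one that stress kinases phosphorylate. eIF2B is the exchange factor that reloads eIF2 with GTP, and its subunit genes are known from vanishing white matter disease. Eif2s1 (chr12:78861819-78887010) had 18.8, 19.0 and 20.4 TPM, and Eif2s2 (chr2:154871410-154892935), for the beta subunit, had 51.4, 51.7 and 59.0 TPM. Both were highest in replicate 3 and their ranges lay far apart. Eif2s1 minus Eif2s2 was -1.47 ± 0.05 log2 units, and Eif2s2 had 60.4% unique 50-mers.

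The 5 eIF2B genes were close to each other. Eif2b5, for the catalytic subunit, had 19.9, 18.9 and 19.9 TPM. Eif2b4 stood at 14.6 ± 1.20, Eif2b1 at 11.3 ± 0.75, Eif2b2 at 10.6 ± 0.99 and Eif2b3 at 10.4 ± 1.03 TPM (n = 3). Inside each library the highest exceeded the lowest, by 0.98 ± 0.05 log2 units on average, or 1.98-fold, and each gene had 100% unique 50-mers. With the longest coding transcript for each gene this spread was 2.37, because the long form of Eif2b3 was listed at 3.80 TPM. Eif2b5 and Eif2s1 overlapped, at 0.02 ± 0.06 log2 units (exact sign-flip p = 1, n = 3), and -0.016 without replicate 1. Eif2a and Eif2d, which encode separate proteins able to deliver initiator tRNA without eIF2, had 18.5 ± 1.91 and 9.53 ± 0.80 TPM.

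The 14 eIF3 genes encode the scaffold that joins the small ribosomal subunit to the mRNA factors. Their median was 36.4, 33.6 and 36.5 TPM, and 9 of the 14 were highest in replicate 3 (31.4% of all coding genes with at least 1 TPM were). Eif3h had the highest mean, with 80.1, 72.8 and 96.1 TPM. Eif3c followed at 72.7 ± 5.48 TPM, with 66.9, 73.4 and 77.8 TPM, and was above Eif3h in replicate 2. Eif3e, Eif3a, Eif3i, Eif3g, Eif3l, Eif3k, Eif3d, Eif3b, Eif3m and Eif3f had means between 48.2 and 22.0 TPM. Eif3j2 had 4.84, 5.24 and 4.83 TPM and Eif3j1 1.41, 1.49 and 1.64 TPM, both apart from all others. Inside each library the highest eIF3 gene exceeded the lowest, by 5.78 ± 0.13 log2 units on average, or 54.8-fold.

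The Eif3j pair held the 2 lowest levels of the complex. Both genes encode the loosely bound j subunit, and their coding sequences are identical at 783 of 783 aligned bases. Only 16.8% of Eif3j1 and 24.0% of Eif3j2 50-mers were unique. Eif3j2 exceeded Eif3j1 by 1.65 ± 0.13 log2 units, or 3.15-fold, but reads in shared stretches cannot be assigned to either. The Eif3j1 gene held 76.0% of the Eif3j2 50-mers, and Eif3j2 held 40.0% of those of Eif3j1. The pseudogene Gm3650 held 36.9% of the Eif3j1 50-mers. Of the Eif3j1 exons, 20.5% also overlapped Spg11 on the opposite strand, listed at up to 2.27 TPM, and strand use in counting is not known here. Among the eIF3 genes with at least 90% unique 50-mers, of which there were 8, the highest exceeded the lowest by 1.73 log2 units. After division by the unique share the spread over all 14 was 3.67, 3.85 and 4.03 with 50-, 75- and 100-mers.

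Eif3m gives a second example of a processed copy. Its gene (chr2:104999656-105017080) stood at 27.5 ± 1.80 TPM with 59.7% unique 50-mers, and the pseudogene Gm7658 on chromosome 1, identical at 98.6% of aligned bases, was listed at 1.08 ± 0.37 TPM (n = 3). In the following stretch of the Eif3m coding sequence the copy shows no difference at all.
Eif3m, chr2:105014794-105014853, minus strand: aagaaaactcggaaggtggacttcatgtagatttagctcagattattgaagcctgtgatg
Gm7658, chr1:21512907-21512966, minus strand: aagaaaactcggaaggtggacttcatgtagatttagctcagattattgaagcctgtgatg

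The copy of Eif2s2, Gm9892, was likewise listed far below its gene, with 99.5% identity and 0.47 ± 0.05 TPM. A pseudogene of Eif3e, Eif3s6-ps2, was listed far higher, at 9.26, 12.4 and 11.0 TPM, against 48.2 ± 1.28 TPM for Eif3e itself. Over the 49 genes, 18 (36.7%) had under 90% unique 50-mers, against a background of 11.3% of coding genes, and 4 had under 50% (background 3.44%). These 4 were Eif4a1, Eif3j1, Eif3j2 and Eif1. At the other end, 19 of the 49 (38.8%) had 100% unique 50-mers, against a background of 67.1%, the scaffold genes Eif4g1 and Eif4g3 among them.

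**Figure D2:**
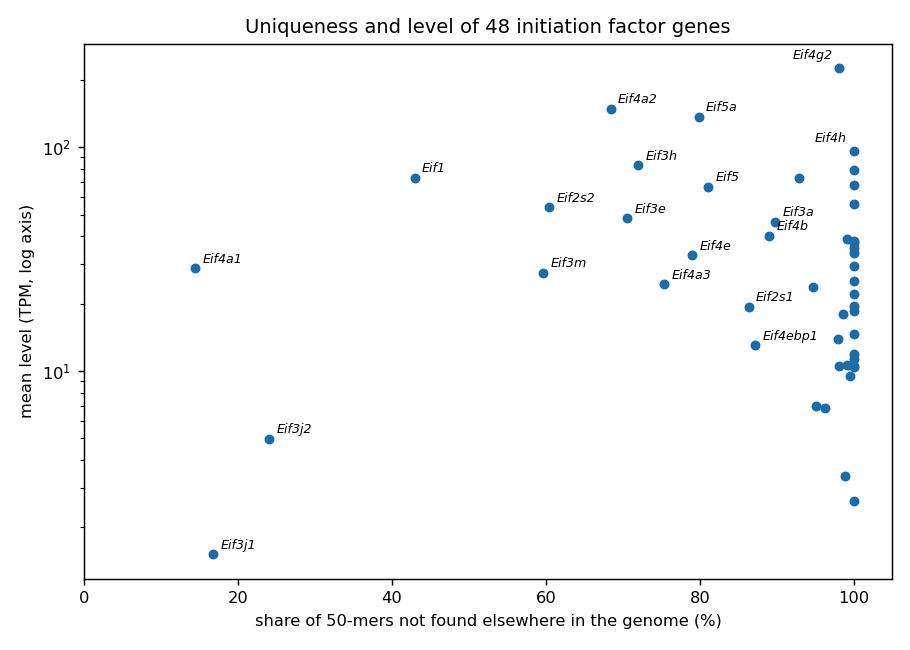
Mean level in TPM (log axis) of the 48 genes with at least 1 TPM against the share of their 50-mers found nowhere else in the genome, with 1 point per gene. Genes under 90% and those above 90 TPM are named, and Eif4a1 and Eif1 stand out as genes with few unique 50-mers and levels of 28.8 and 73.0 TPM.

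Among the genes for subunit joining and eIF5A, Eif5a was the highest. Eif5a (chr11:69916714-69921958) encodes the hypusine-bearing factor that helps the ribosome form difficult peptide bonds. It had 144, 136 and 132 TPM, and its relative Eif5a2 (chr3:28781276-28798846) had 6.54, 7.80 and 6.04 TPM. The ranges lay far apart, with Eif5a2 minus Eif5a at -4.32 ± 0.19 log2 units, the largest difference of the 17. Eif5b, the GTPase that joins the ribosomal subunits, stood at 10.7 ± 1.19 TPM, and Eif6, which keeps free large subunits from joining, at 13.9 ± 0.78 TPM (n = 3). Of the Eif5b exons, 21.1% overlapped Rev1 on the opposite strand, listed at up to 8.33 TPM, and strand use in counting is not known here.

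Compared as complexes, the median of the eIF3 genes exceeded that of the eIF2B genes by 1.59 ± 0.09 log2 units, or 3-fold. The median of 8 eIF4 genes (Eif4a1, Eif4a2, Eif4b, Eif4e, Eif4g1, Eif4g2, Eif4g3 and Eif4h) exceeded that of the eIF3 genes by 0.42 ± 0.11 log2 units, or 1.34-fold. Both differences had the same sign in each library. With the sum over transcripts the first turned to -0.16. Division by the unique share left it at 1.68 with 50-mers and raised the second to 0.95. The second was 2.22 with the sum over transcripts, 1.05 over genes with at least 90% unique 50-mers and 0.19 with transcripts of whole reads.

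**Figure D3:**
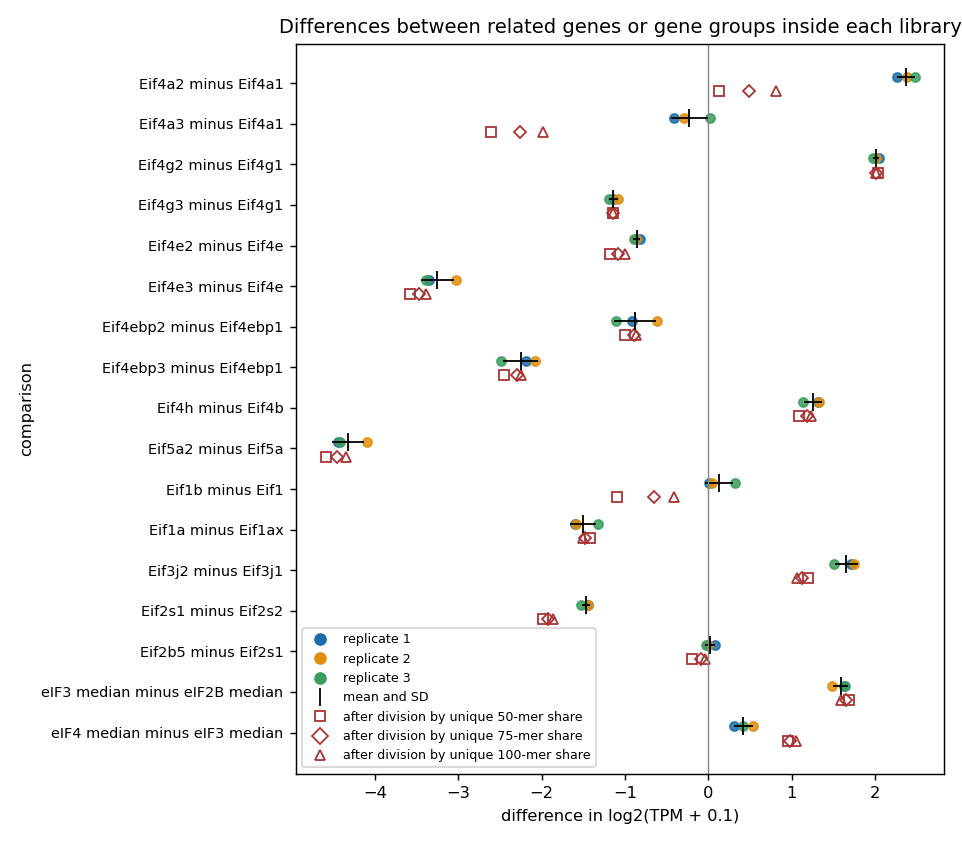
Difference in log2(TPM + 0.1) for the 17 comparisons, with 1 filled point per library, the mean as a black bar and SD as a line, and open red symbols for the mean after division by the share of unique 50-, 75- or 100-mers. The Eif4g comparisons stayed near their values, while Eif4a2 minus Eif4a1 moved from 2.37 to 0.13 and Eif1b minus Eif1 changed sign with 50-mers.

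The libraries differed little on most members. The coefficient of variation over the libraries had a median of 6.61% over the 48 genes with at least 1 TPM, against 7.88% over all coding genes at that level. For 45 of the 48 it was larger than counting error, whose median was 1.90%. That error is only an estimate for the 10 genes without whole read numbers. The same count was not made over all coding genes, so it shows nothing particular to the members. The coefficient of variation was over 10% in 10 genes (background 34% of coding genes). Replicate 3 was the highest library for 25 of the 48 (background 31.4%), replicate 1 for 13 (background 28.2%) and replicate 2 for 10 (background 40.4%).

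Transcript length moved with the library in which a gene was highest. The median exonic length was 1500 bases for members highest in replicate 1, 5076 for those highest in replicate 2 and 2469 for those highest in replicate 3. Over all coding genes with at least 1 TPM the same medians were 2290.5, 4168 and 2563.5 bases. The summed astrocyte markers were highest in replicate 3 and the summed neuronal markers in replicate 2. The summed oligodendrocyte-lineage markers had 63.96, 48.8 and 80.3 TPM, also highest in replicate 3, with Pdgfra at 11.5, 4.94 and 18.4 TPM. The part of length or cell makeup in the members' differences between libraries was not tested.

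**Figure D4:**
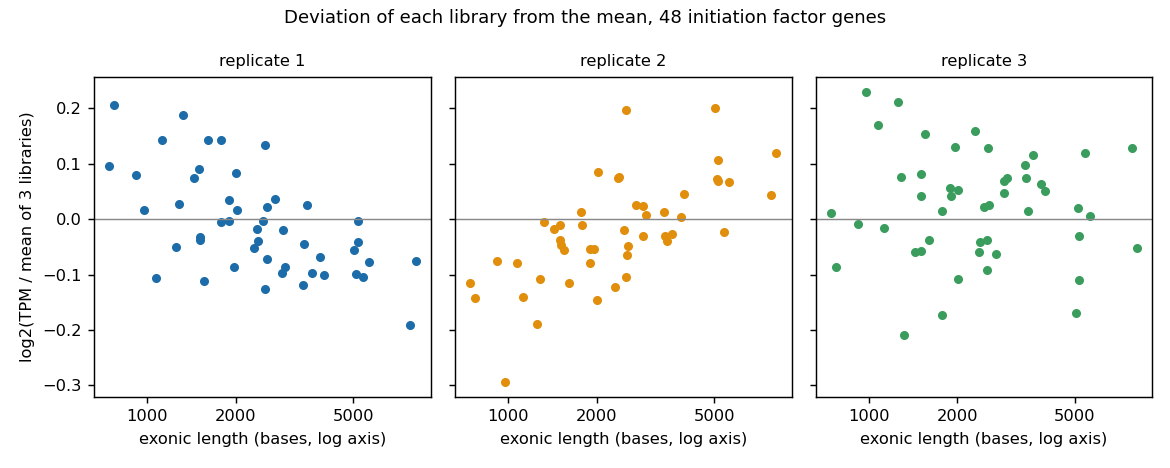
Deviation of each library from the mean of the 3 libraries, as log2 of the ratio of TPM, against exonic length (log axis) for the 48 genes with at least 1 TPM, with 1 panel per library. In replicate 1 short transcripts lie mostly above 0 and long ones below, in replicate 2 the reverse is seen, and replicate 3 shows both signs at most lengths.

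The members lay on 18 chromosomes, at most 5 on each. Eif4a1 and Eif5a lay 244 kb apart on chromosome 11, and Eif2b5 and Eif4g1 159 kb apart on chromosome 16. Their annotated start regions were searched for a pair of motifs. RefSeq promoters of GRCm38.p6, from 250 bases before to 50 after each annotated start, were matched for 37 of the 49 genes. A gene counted as having a motif if any of its promoters held it, so genes with more promoters had more chances. The letters CACGTG, the E-box read by Myc and USF proteins and the same on both strands, were found in 10 of these 37 (27%), against 10.3% of 13918 genes with a promoter. The median level was 40.9 TPM for the 10 members with the motif and 24.5 TPM for the other 27. The 10 included Eif4e, Eif4a1 and Eif4g1 but not Eif4a2 or Eif4g3, which lacked either the motif or a matched promoter. The 3 windows below are from those genes for the cap-binding, helicase and scaffold parts of eIF4F that had it, with the motif in capitals.
Eif4e, chr3:138527192-138527221, plus strand: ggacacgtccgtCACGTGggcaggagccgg
Eif4a1, chr11:69672595-69672624, minus strand: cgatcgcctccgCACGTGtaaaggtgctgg
Eif4g1, chr16:20672661-20672690, plus strand: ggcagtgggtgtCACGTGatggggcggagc

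A match describes the letters only, and binding was not measured here. A C followed by at least 4 further pyrimidines, beginning within 5 bases of the start, is the kind of sequence found in genes of the translation machinery that respond to mTOR. It was present in 8 of the 37 (21.6%), against 23% of the 13918 genes with a promoter. The members with it had a median of 20.8 TPM and the others 32.9 TPM.

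The other translation genes examined were expressed as well, all 36 of them at 1 TPM or more, against a background of 61.8% of all coding genes. This list was chosen with earlier results of these data known. Among 9 partners of initiation, Bzw1, an eIF5 mimic, and Pabpc1, the poly(A)-binding protein, were highest at 87.5 ± 5.94 and 81.9 ± 2.71 TPM, and the helicase gene Dhx29 lowest at 6.08 ± 0.24 TPM. Of 10 genes that control eIF4E and eIF4A, Paip2, an inhibitor of the poly(A)-binding protein, had 74.7 ± 1.46 TPM and Cyfip2, a relative of an eIF4E-binding partner of the fragile X protein, 38.1 ± 3.10 TPM. Mknk2, for a kinase that phosphorylates eIF4E, was the lowest of that group at 7.70 ± 1.10 TPM.

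The 6 genes of the eIF2 kinases and of the phosphatase subunits that oppose them had means between 2.35 and 12.6 TPM. Ppp1r15b and Ppp1r15a, for the phosphatase subunits, had 12.6 ± 0.35 and 12.6 ± 3.55 TPM, and Eif2ak2, the kinase gene activated by double-stranded RNA, 2.35 ± 0.32 TPM. Ppp1r15a, a stress-induced gene, stood at 10.4 and 10.6 TPM in replicates 1 and 2 and at 16.7 TPM in replicate 3. Elongation genes reached the highest levels, with Eef1a1 at 577 ± 63.3 TPM (26.9% unique 50-mers) and Eef2 at 274 ± 14.2 TPM, while Eef2k, for the kinase that inhibits eEF2, was lowest of these 8 at 6.46 ± 0.29 TPM. The 3 termination genes Etf1, Gspt1 and Gspt2 stood at 36.1 ± 2.36 TPM, between 26.4 and 28.0 TPM, and at 11.7 ± 0.57 TPM (n = 3).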

How the data were processed

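The deposited table gives TPM for 84660 transcripts in 3 control libraries. Its name refers to GENCODE M4, and the build is mm10 per the submitters' processing notes. Those notes also list Subread 1.4.6 with featureCounts, the aligner STAR 2.5.3a and FastQC 0.11.2. Each column summed to 1000000, so levels are relative. Rows were joined on the unversioned transcript identifier to GENCODE M21 on GRCm38 (98.1%, with 1643 unmatched). Exons were clipped to the deposited span. TPM times that length was a whole multiple of 1 constant, within 0.01 of a read, for 99.8% of values above 0 on 74454 transcripts with an unchanged span and 95.4% of all matched, which gave the read numbers. For 10 of the 49 genes it was not whole, and their reads are not given.

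Reads of overlapping transcripts are not separate in the table, so 1 coding transcript stood for each gene. It was the one with the highest mean TPM times full M21 exonic length, before clipping. Uniqueness was measured by searching the 50-mers, 75-mers and 100-mers of each full M21 transcript, taken every 10 bases, on 22 chromosomes of GRCm38. These transcripts were not clipped, so for genes with a shortened span the share also covers bases outside it. Such genes include Eif4g2 (7995 bases, 5177 after clipping), Eif4e (4991 and 2882), Eif4ebp1 (1997 and 979) and Eif4ebp2 (5784 and 1778). Differences of log2(TPM + 0.1) inside each library were tested by exact permutation of their signs (two-sided), with Benjamini-Hochberg adjustment over 17 comparisons. Named are both genes of each pair, the 5 highest and 5 lowest genes with at least 1 TPM, every gene under it, and the highest 2 and lowest of each group of pathway genes. Pseudogenes, overlapping genes and promoter motifs were chosen after their values were seen. Members and lists were chosen with earlier results of these data known.

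Other settings tried were pseudocounts of 1 and 0.01, other transcripts per gene, genes with at least 90% unique 50-mers, rescaling to nuclear coding genes, other minimum levels and leaving out each replicate. Division by the unique share and transcripts with whole reads were added after the data were seen. Proteins had been planned for display, and coding nucleotides were used instead. The calculations were tested on simulated data. Python 3.11.15, numpy 2.4.6, pandas 2.3.3, scipy 1.17.1, numba 0.67.0 and matplotlib 3.10.9 were used.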

Additional observations from a re-analysis of the deposited data

How the results depend on the processing

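Among comparisons and summaries recomputed with other pseudocounts, transcripts, minimums, gene sets or libraries, 6 differences reversed, and 6 more under the settings added after the data were seen. Differences that kept their sign did not all keep their size: 9 of 135, and 8 of 59 under the added settings, moved by over 1.5 times. The causes were not tested. Reversed differences (log2) were Eif4a3 minus Eif4a1 at 0.11 and Eif4e2 minus Eif4e at 0.085 with the transcript of highest TPM, and, with the sum over transcripts, which counts shared reads repeatedly, Eif4e2 minus Eif4e at 2.33, Eif1b minus Eif1 at -1.46 and the eIF3 minus eIF2B medians at -0.16. Eif2b5 minus Eif2s1 ran from -0.016 (without replicate 1) to 0.041 (without replicate 3) when 1 replicate was left out. Division by the unique share of 50-, 75- and 100-mers reversed Eif1b minus Eif1 (-1.10, -0.65 and -0.41) and Eif2b5 minus Eif2s1 (-0.19, -0.086 and -0.036). Of those that kept their sign, the sum left Eif4ebp2 minus Eif4ebp1 at -0.00053 and moved Eif4a2 minus Eif4a1 to 5.11, Eif5a2 minus Eif5a to -8.23, Eif2s1 minus Eif2s2 to -3.09, Eif4g3 minus Eif4g1 to -1.79, Eif2b5 minus Eif2s1 to 1.04 and the eIF4 minus eIF3 medians to 2.22. Eif4a2 minus Eif4a1 was 3.09 with the highest transcript, and Eif3j2 minus Eif3j1 1.06 after division with 100-mers.

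The members' median was 32.2 TPM with the highest transcript and 60.8 with the sum. It was 19.8 with at least 90% unique 50-mers, where 31 of 31 reached 1 TPM and 14 were highest in replicate 3. After division the median was 29.5, 28.2 and 26.7, with whole reads 24.0, and after rescaling to nuclear coding genes 116. The rescaling set the sum over 1 transcript per such gene to 1000000, while each deposited column reaches that sum over all 84660 transcripts. The eIF3 spread was 6.29 with the sum, 1.73 with at least 90% unique 50-mers and 3.67, 3.85 and 4.03 after division. The eIF2B spread was 0.91 with the highest transcript, 1.14 with the sum, 2.37 with the longest and 1.05 with whole reads. The median variation was 7.61% with the highest transcript, 7.32% with the sum, 6.53% with the longest, 7.50% with at least 90% unique 50-mers, 6.68% without a minimum, 6.91% after rescaling and 7.56% with whole reads, and 5.48% to 5.97% when 1 replicate was left out. The sum raised 28 of the 49 levels by over 1.5 times and division with 50-mers 6.

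No paired analysis was possible because the 3 libraries form 1 group. The count highest in replicate 3 without that replicate, and pairs with a gene under 90% unique 50-mers under that limit, gave no value. Depth limited Eif4e1b, and in Eif4ebp3, Eif4ebp2 and Eif1ad counting error (10.4%, 4.16% and 2.70%) exceeded the spread between libraries. For Eif4ebp2 that error is only an estimate, as its read numbers were not recovered.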
